A study of Mus musculus with 34 samples.

Results

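10 target genes of the hypoxia-inducible factors (HIF) were followed across fetal livers that lacked combinations of the retinoblastoma family: Kdm3a, Ankrd37, Vegfa, Bnip3, Egln1, Egln3, Pdk1, Slc2a1, Adm and Ndrg1. They were listed by name as known HIF targets with earlier results of these data in view, so their counts beside those of all genes are a description. They are 10 of the 18193 genes named on the arrays, and are read by 23 of the 45037 probe sets. Total RNA came from freshly isolated, unfractionated livers of untreated fetuses, labelled as embryonic day 14.5, while the series design gives day 13.5 to 14.5. The groups were the triple knockout lacking Rb1, p107 and p130 (TKO, 6 arrays), fetuses without Rb1 or p130 (Rb1;p130 DKO, 9 arrays), without Rb1 or p107 (Rb1;p107 DKO, 5 arrays), the Rb1 KO (2 arrays), those without p107 or p130 (p107;p130 DKO, 6 arrays), the p130 KO (3 arrays), the p107 KO (1 array) and wild type (2 arrays). p107 is the product of Rbl1 and p130 that of Rbl2. Strain, the kind of knockout allele and any Cre driver were not given in the sources used here, nor was it stated whether arrays came from separate animals, so p-values measure the spread between these samples. Signals are Affymetrix MAS5 values on a linear scale, and changes are differences of log2(signal + 32).

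HIF is a pair of proteins, an oxygen-labile alpha subunit (Hif1a or Epas1) and a stable partner (Arnt). When oxygen is present, prolyl hydroxylases encoded by the Egln genes mark the alpha subunit for destruction through Vhl, and when oxygen is short the pair binds DNA and raises genes for oxygen delivery, glycolysis and feedback on HIF itself. The fetal liver is the main blood-forming organ at this stage, and most of its cells are red cell precursors.

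Of the 10 genes, 9 had a promoter window in the RefSeq table (build GRCm38.p6, 250 bases before to 50 after an annotated start), and Ndrg1 had none. The core of the hypoxia response element was searched as ACGTG and GCGTG on both strands. At least 1 window of each of the 9 genes held a match, as did 9 of their 13 windows, against 43.8% of all 32851 windows and 46.7% of all 27025 genes. For Vegfa the matches lie in a window inside the gene (chr17:46025114-46025413), while the window at its outermost start (chr17:46032328-46032627) held none. A match describes the letters in the window and is not a bound site. The windows of the 3 genes that passed a test below are shown, each 5′ to 3′ on the minus strand, with matches on either strand in capitals. Kdm3a lies at chr6:71632868-71633167 (1 match, the other 2 windows of the gene having none), Ankrd37 at chr8:45999801-46000100 (4 matches, the middle pair overlapping, a number reached by 3.9% of windows) and Egln3 at chr12:54203825-54204124 (1 match).
Kdm3a: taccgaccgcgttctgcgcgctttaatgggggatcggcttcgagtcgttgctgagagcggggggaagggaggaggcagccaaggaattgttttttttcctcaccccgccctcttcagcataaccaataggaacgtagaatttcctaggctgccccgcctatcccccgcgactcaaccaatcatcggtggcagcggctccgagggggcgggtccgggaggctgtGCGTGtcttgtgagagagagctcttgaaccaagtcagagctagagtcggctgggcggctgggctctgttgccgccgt
Ankrd37: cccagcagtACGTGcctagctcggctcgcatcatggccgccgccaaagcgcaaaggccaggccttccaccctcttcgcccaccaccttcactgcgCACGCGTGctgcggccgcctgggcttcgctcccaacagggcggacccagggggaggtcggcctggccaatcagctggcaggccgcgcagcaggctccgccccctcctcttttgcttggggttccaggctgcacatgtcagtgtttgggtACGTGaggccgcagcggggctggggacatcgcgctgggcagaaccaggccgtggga
Egln3: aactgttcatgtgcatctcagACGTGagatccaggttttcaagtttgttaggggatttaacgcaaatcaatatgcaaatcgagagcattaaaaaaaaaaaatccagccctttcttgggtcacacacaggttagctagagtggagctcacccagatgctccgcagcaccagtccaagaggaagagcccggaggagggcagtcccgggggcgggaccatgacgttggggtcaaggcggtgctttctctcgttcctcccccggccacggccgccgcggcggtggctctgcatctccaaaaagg

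The targeted genes followed the labels. Rb1 signal averaged 937.4 to 1515.5 in the 4 groups without Rb1, against 5860.0 to 7435.1 in the 4 groups with it, and Rbl1 averaged 69.5 to 87.6 in groups without p107, against 1381.6 to 2077.7 elsewhere. Rbl2 averaged 184.2 to 206.7 in groups without p130, against 345.1 to 481.3 elsewhere. The median signal per array lay between 80.1 and 115.1, and the share of probe sets at 100 or above between 45.6 and 53.3%. The arrays fell into 3 array groups of 17, 10 and 7 arrays when clustered on the signal difference between pairs of probe sets of the same gene, without genotype. No label or header records them, so they stand as a property of the values, and genotypes are spread over them unevenly: the third holds 4 of the 9 Rb1;p130 DKO arrays and none of the Rb1;p107 DKO, Rb1 KO, p107 KO or wild-type arrays. Fetal sex, read from Xist and Y-linked genes, was female on 17 arrays and male on 17, and all 3 p130 KO arrays were female. The TKO had 4 female and 2 male arrays, the p107;p130 DKO 1 female and 5 male, and both Rb1 KO arrays were male. Markers of liver and of red cell precursors were checked against the labelled tissue: the summed signal per array was 110104 to 184072 over 9 hepatocyte markers and 81895 to 134229 over 7 erythroid markers, 1 of which stayed under 100 on all arrays.

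Loss of Rb1, averaged over all backgrounds, went with higher RNA of 2 of the 10 genes, Kdm3a and Ankrd37, and none was lower. In the additive fit of Rb1, p107 and p130 loss over 34 arrays (22 without Rb1, 12 with it), limma called 2.26% of 12723 genes at an adjusted p under 0.05, and 1.75% as higher. The median change of the 10 genes was 0.145 on the log2 scale, against -0.016 over all genes tested, and 8 of 10 changes were positive. At an unadjusted p under 0.05 there were 5 of the 10 genes, against 11.3% of all genes. All 10 passed the filter on low signal (at least 100 on at least 2 arrays), but Adm reached a signal of 100 on 25 arrays and Ankrd37 on 32.

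Kdm3a encodes a histone demethylase that removes methyl marks from lysine 9 of histone H3 and uses oxygen to do so. Its lowest, median and highest signals were 1376.1, 1739.1 and 2149.9 in the TKO, 1427.8, 1720.8 and 2163.5 in the Rb1;p130 DKO, and 962.0, 1090.7 and 1658.6 in the p107;p130 DKO. The 5 Rb1;p107 DKO arrays read 1273.6, 1558.3, 1850.1, 1465.8 and 1681.3, the 2 Rb1 KO arrays 1344.6 and 1296.2, the 3 p130 KO arrays 1089.4, 871.2 and 1643.6, the p107 KO array 1462.1 and the wild-type arrays 851.3 and 1295.7. All 22 arrays without Rb1 lay above the mean of those with it, yet the ranges overlapped, with 4 of the 12 arrays with Rb1 (1 p130 KO, 1 p107;p130 DKO, the p107 KO and 1 wild-type array) inside the range of the arrays without Rb1. Over the 22 arrays without Rb1 the mean was 1680.8 ± 307.2, and over the 12 with it 1190.4 ± 276.7 (SD). Kdm3a rose 1.43-fold with Rb1 loss (0.51 ± 0.10, SE, limma adjusted p = 0.000831). By mean signal the genotypes ran from the Rb1;p130 DKO (1767.7) and the TKO (1766.5) through the Rb1;p107 DKO (1565.8), p107 KO (1462.1), Rb1 KO (1320.4), p130 KO (1201.4) and p107;p130 DKO (1178.5) to wild type (1073.5). Of the pairs tested next to each other in that order, none differed at an adjusted p under 0.05.

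Kdm3a signal also moved with array group. It averaged 1347.1 ± 365.8 on the 17 arrays of the first, 1465.3 ± 208.7 on the 10 of the second and 1958.2 ± 216.5 on the 7 of the third (SD). Within the Rb1;p130 DKO the 2 did not overlap, with 2020.5 to 2163.5 on its 4 arrays in the third array group and 1427.8 to 1720.8 on its 5 in the first. The share of all genes that separate these arrays in the same way was not counted, so the gap is a description. The high p130 KO and p107;p130 DKO arrays, at 1643.6 and 1658.6, are the only ones of their genotypes in the third array group. Within the 3 array groups, mean log2 signal was higher without Rb1 than with it by 0.64, 0.30 and 0.33. These are plain differences of means, with no terms for p107 or p130 loss. In the additive fit with array group as a block the change was 0.49 ± 0.07 (limma adjusted p = 5.98e-06). Arrays without Rb1 were thus higher on average within each array group, the third holding 5 arrays against 2. Loss of p107 and p130 was not balanced between the sides of these differences.

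Ankrd37, an ankyrin-repeat protein that HIF induces strongly in many cells, had a low signal throughout. Its lowest, median and highest signals were 134.3, 191.0 and 251.4 in the TKO, 112.8, 185.5 and 290.8 in the Rb1;p130 DKO, and 105.5, 134.3 and 152.7 in the p107;p130 DKO. The Rb1;p107 DKO arrays read 207.5, 199.7, 145.0, 195.5 and 188.5, the Rb1 KO arrays 167.6 and 168.7, the p130 KO arrays 137.2, 68.1 and 21.5, the p107 KO array 182.2 and wild type 106.6 and 157.5. Arrays without Rb1 were mostly higher, and 21 of 22 lay above the mean of the arrays with Rb1, but 8 of the 12 arrays with Rb1 lay inside their range: 5 of 6 p107;p130 DKO arrays, 1 p130 KO array, the p107 KO array and 1 wild-type array. Means were 188.1 ± 40.4 without Rb1 and 121.4 ± 43.0 with it (SD, n = 22 and 12). Ankrd37 rose by 0.59 ± 0.13 on the log2 scale (SE, limma adjusted p = 0.00706), and the change was 0.62, 0.27 and 1.06 within the 3 array groups. The lowest of the arrays with Rb1 were of the p130 KO, where 2 of 3 read under 100.

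**Figure D1:**
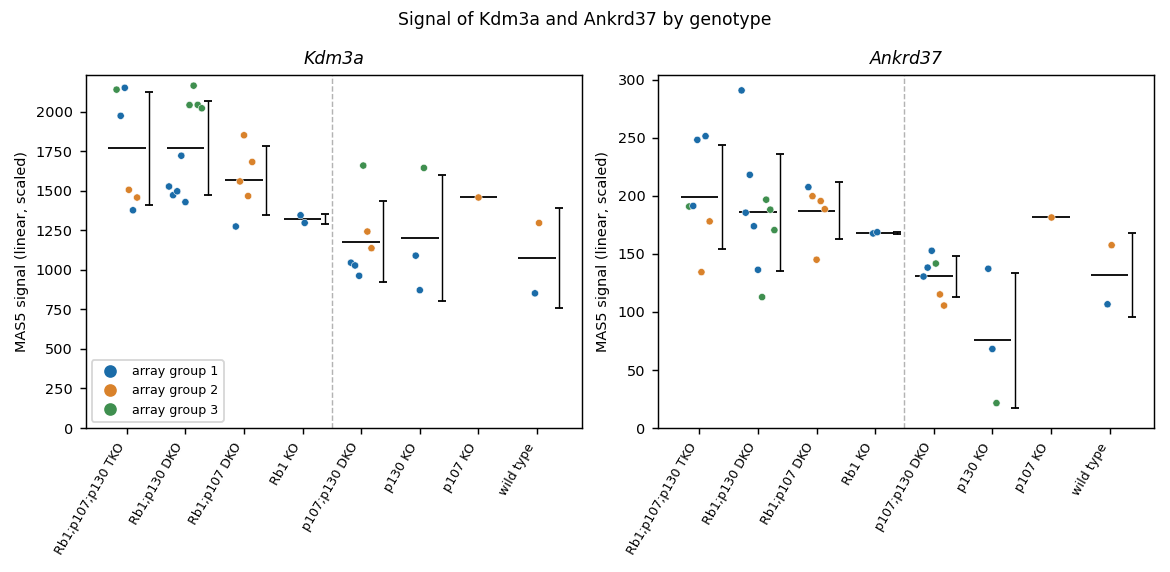
MAS5 signal (linear scale) of Kdm3a and Ankrd37 on each of the 34 arrays, by genotype, with groups lacking Rb1 left of the dashed line. Points are arrays coloured by inferred array group, bars are means and whiskers SD. Kdm3a lies at 2020.5 to 2163.5 on the third-group arrays of the Rb1;p130 DKO, and Ankrd37 falls to 21.5 on 1 p130 KO array.

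None of the other 8 genes was called with Rb1 loss. Egln1, the main oxygen-sensing prolyl hydroxylase, changed by 0.19 ± 0.07 (limma adjusted p = 0.193, 19 of 22 arrays above the mean with Rb1), and it passed the threshold when TKO array 3 was left out (0.22, adjusted p = 0.0445), the array that lies far below the others of the TKO. Egln3, the hydroxylase most strongly induced in low oxygen, changed by 0.01 ± 0.12 (adjusted p = 0.986). Bnip3, which targets mitochondria for removal, changed by 0.28 ± 0.12 (adjusted p = 0.315). Among secreted signals, Adm, the vasodilator peptide, changed by 0.33 ± 0.14 (adjusted p = 0.348) and Vegfa, the growth factor for blood vessels, by 0.10 ± 0.15 (adjusted p = 0.900). Slc2a1, the glucose transporter of red cell precursors, changed by -0.10 ± 0.09 (adjusted p = 0.767) and Ndrg1, a stress-response gene, by 0.09 ± 0.10 (adjusted p = 0.845). Pdk1, a kinase that inhibits pyruvate dehydrogenase, changed by -0.32 ± 0.16 (adjusted p = 0.459).

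The levels of these genes in each genotype show the spread behind those tests. Egln1 averaged 981.3 ± 157.4 in the TKO, 961.4 ± 117.5 in the Rb1;p130 DKO, 1049.3 ± 69.5 in the Rb1;p107 DKO and 899.7 ± 70.0 in the p107;p130 DKO (SD). Its 2 wild-type arrays, at 710.8 and 815.4, and 3 p130 KO arrays, at 874.8, 861.7 and 667.5, were at the low end, and the p107 KO array read 1104.0. Bnip3 averaged 2085.9 ± 375.1 in the TKO, 1956.2 ± 377.9 in the Rb1;p107 DKO, 1708.1 ± 580.2 in the Rb1;p130 DKO and 1599.9 ± 277.3 in the p107;p130 DKO, with wild type at 1067.1 and 1509.9. The TKO was thus the highest for Bnip3, but its range of 1667.5 to 2705.2 ran into those of the double knockouts. Adm averaged 165.7 ± 42.6 in the TKO, against 105.1 ± 32.9 in the Rb1;p130 DKO and 100.9 and 69.3 on the wild-type arrays. In the p107;p130 DKO its lowest, median and highest signals were 38.0, 111.2 and 139.7.

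Slc2a1 was read at 16982.1 to 34018.6 in the TKO and 20625.3 to 30438.7 in the p107;p130 DKO, with wild type at 22447.6 and 36515.8. Its mean was 30795.9 on the second array group, against 23369.2 on the first and 22248.2 on the third. Vegfa ranged from 256.8 to 548.8 in the TKO and from 198.2 to 584.1 in the p107;p130 DKO. Its plain difference of means between arrays without and with Rb1 was -0.05, -0.15 and 0.97 within the 3 array groups, positive in the third alone. Ndrg1 ranged from 629.1 to 1382.2 in the TKO and from 587.8 to 914.2 in the p107;p130 DKO. Its 5 probe sets changed by -0.18 to 0.25 with Rb1 loss, on either side of 0, while all 3 of Slc2a1 were negative (-0.10 to -0.19) and both of Adm positive (0.33 and 0.29), none called.

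**Figure D2:**
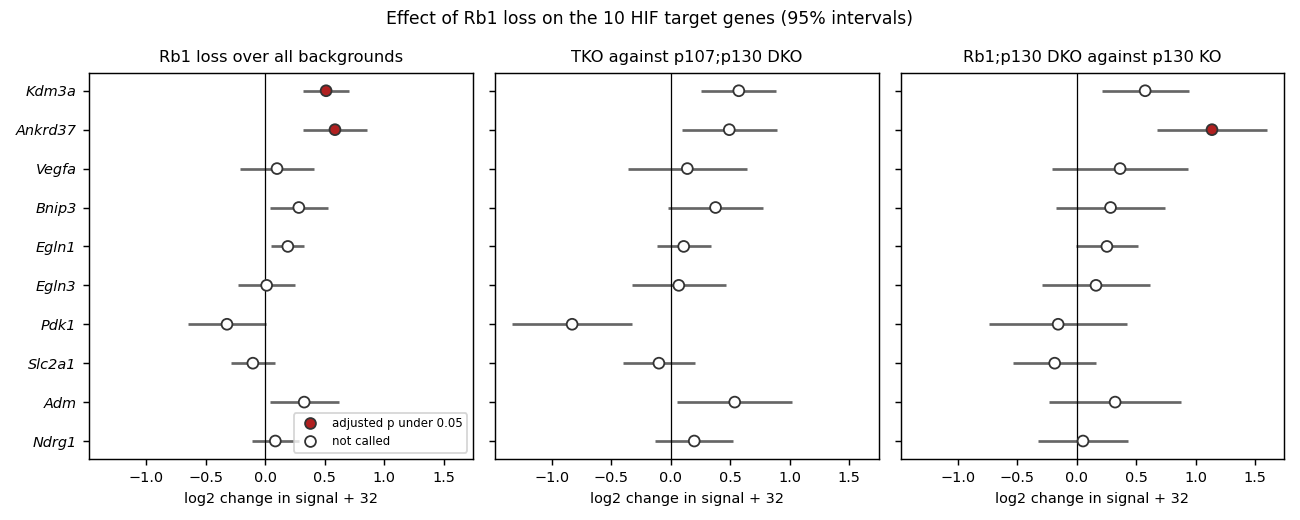
Log2 change in signal + 32 of the 10 genes (points) with 95% intervals in 3 comparisons, Rb1-deficient over Rb1-bearing. Filled points have an adjusted p under 0.05: Kdm3a and Ankrd37 over all backgrounds (0.51 and 0.59) and Ankrd37 in the Rb1;p130 DKO against the p130 KO (1.14).

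Where p107 and p130 were both absent, further loss of Rb1 (TKO against the p107;p130 DKO, 6 arrays each) gave no call among the 10 genes, with 4 at an unadjusted p under 0.05. limma called 0.377% of all genes here, and 6.02% reached an unadjusted p under 0.05. The 4 were Kdm3a (0.57 ± 0.16, adjusted p = 0.122), Pdk1 (-0.83 ± 0.25, adjusted p = 0.200), Ankrd37 (0.49 ± 0.20, adjusted p = 0.628) and Adm (0.54 ± 0.24, adjusted p = 0.740). Kdm3a was above the double knockout mean on 6 of 6 TKO arrays, and with array group as a block it was called (0.57 ± 0.11, limma adjusted p = 0.00306). It was also called without array 4 of the double knockout, the one in the third array group (0.67, adjusted p = 0.0449). The Kdm3a change within the 3 array groups was 0.81, 0.31 and 0.36, the last from 1 array against 1.

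Pdk1 was the one gene of the 10 with a negative change of this size. Its signal was 957.8, 1465.6, 1314.6, 2622.9, 2085.4 and 2512.3 on the 6 TKO arrays, against 2319.6, 2771.0, 3511.6, 2739.0, 3751.4 and 3649.5 on those of the p107;p130 DKO. Every TKO array lay below the double knockout mean, though the ranges overlap. Its 4 probe sets did not move together: 3 changed by -0.83, -0.85 and -0.53, and the other by 0.22 ± 0.15. Over all backgrounds the same 4 changed by -0.32, -0.14, -0.10 and 0.03, so the size of the Pdk1 change depended on the probe set.

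**Figure D3:**
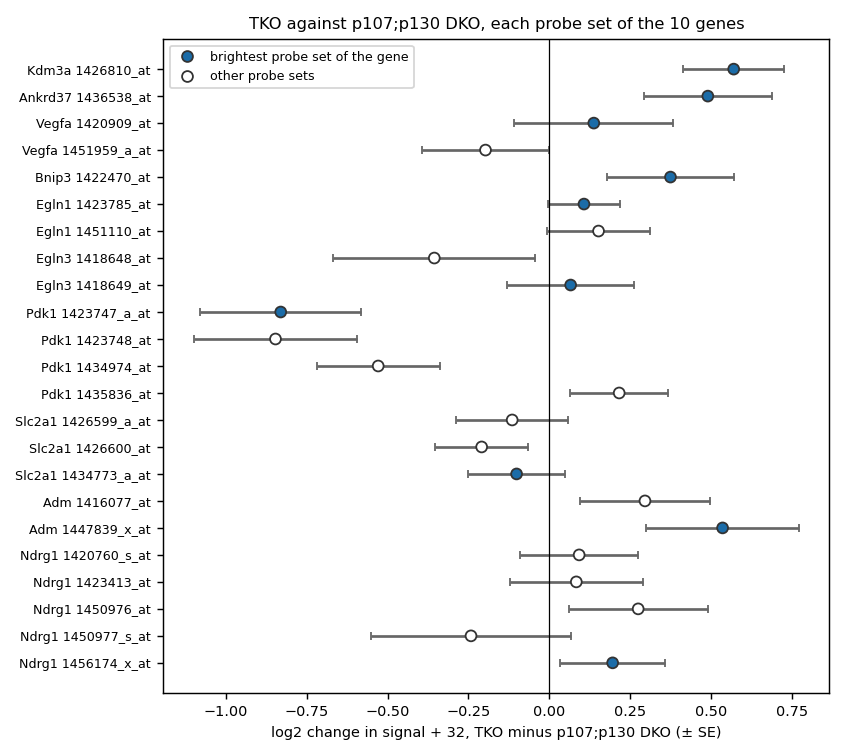
Log2 change (± SE) of each of the 23 probe sets in the TKO against the p107;p130 DKO. Filled points are the brightest probe set of a gene. The 4 Pdk1 probe sets run from -0.85 to 0.22.

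In fetuses that lacked p130, loss of Rb1 (Rb1;p130 DKO, 9 arrays, against p130 KO, 3 arrays) went with a rise in 1 gene, Ankrd37, by 2.20-fold (1.14 ± 0.23, limma adjusted p = 0.0227), where limma called 0.118% of all genes and 0.0707% as higher. 2 of the 10 had an unadjusted p under 0.05, against 5.3% of all genes. The p130 KO arrays read 137.2, 68.1 and 21.5, and the double knockout ranged from 112.8 to 290.8. The first p130 KO array lay within the range of the DKO, and the call was lost without p130 KO array 2 (1.16, adjusted p = 0.103), without array 3 (0.71, adjusted p = 0.566) and when only the arrays of the pair were fitted (1.14, adjusted p = 0.485). With array group as a block it held at 1.17 (adjusted p = 0.00392). Kdm3a changed by 0.58 ± 0.18 (adjusted p = 0.436, 9 of 9 arrays above the p130 KO mean). In the same comparison, 0 of 51 cell type markers were called by limma and none had an unadjusted p under 0.05. The change was positive for 5 of 7 stellate and mesenchymal markers (median 0.327), 5 of 8 endothelial, 4 of 9 hepatocyte, 1 of 6 erythroid, 1 of 8 macrophage (median -0.253), 0 of 8 neutrophil (median -0.215) and 0 of 5 megakaryocyte markers (median -0.326). Stellate and mesenchymal markers summed to 5384 to 23611 in the DKO, against 4947 to 12559 in the p130 KO. For macrophage, neutrophil and megakaryocyte markers the summed signals in the DKO and the p130 KO were 7320 to 11361 against 9337 to 14611, 35777 to 87794 against 50609 to 91057, and 10989 to 34255 against 14710 to 31273. In bulk tissue, fewer cells of a type and less RNA per cell cannot be told apart, and the part of these cell types in the Ankrd37 change was not tested.

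The other 9 pairs of genotypes gave 0 calls in 90 tests of the 10 genes by limma, with adjusted p of 0.4 or more and 12 tests at an unadjusted p under 0.05. In the TKO against wild type (0.0786% of all genes called, 4.57% at an unadjusted p under 0.05), Kdm3a (0.71 ± 0.22), Bnip3 (0.68 ± 0.28) and Adm (0.74 ± 0.33) had no overlap between the 6 TKO and 2 wild-type arrays, and 3.7% of all genes had every TKO array above every wild-type array. Egln1 changed by 0.34 ± 0.16 there. In the TKO against the Rb1;p130 DKO (0.0236% called, 5.44% unadjusted), Egln3 changed by 0.45 ± 0.18 and Adm by 0.54 ± 0.22. In the TKO against the Rb1;p107 DKO (0.00786% called, 7.47% unadjusted), Slc2a1 changed by -0.33 ± 0.16. In the p107;p130 DKO against p130 KO (0.0236% called, 4.42% unadjusted), Ankrd37 changed by 0.74 ± 0.24 and Egln3 by 0.55 ± 0.24. The p130 KO against wild type (0% called, 2.01% unadjusted) gave Ankrd37 -0.74 ± 0.31. These Ankrd37 values share the low p130 KO arrays. In the Rb1;p107 DKO against Rb1 KO (0.00786% called, 11.8% unadjusted) Bnip3 changed by 0.62 ± 0.28, and in the Rb1 KO against wild type (0.00786% called, 3.44% unadjusted) Egln1 by 0.40 ± 0.19. The Rb1;p130 DKO against Rb1 KO (0% called, 2.29% unadjusted) and the p107;p130 DKO against wild type (0.00786% called, 1.96% unadjusted) had none of the 10 genes at an unadjusted p under 0.05. Several of these comparisons share arrays.

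Whether the Rb1 change itself differed between backgrounds was tested by limma as an interaction. With joint p107 and p130 loss, 0 of the 10 genes were called and 0 had an unadjusted p under 0.05 (0% and 2.08% of all genes). With p107 loss where p130 was absent, 0 were called and 1 had an unadjusted p under 0.05 (0% and 1.64% of all genes), Ankrd37 at -0.65 ± 0.30 (adjusted p = 1). The single p107 KO array entered no pair test.

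Loss of p107, averaged over all backgrounds (18 arrays without p107, 16 with it), was called for Egln3 alone among the 10 genes, and was examined after the data were seen. limma called 1.14% of all genes, 0.417% as higher, and 17% had an unadjusted p under 0.05, as did 3 of the 10. Loss of p130 gave 0 calls among the 10 and 0 at an unadjusted p under 0.05, against 0.0157% and 10.1% of all genes. Egln3 was 264.0 ± 66.6 without p107 and 182.0 ± 53.9 with it (SD), a rise of 0.47 ± 0.11 (limma adjusted p = 0.0304, 16 of 18 arrays above the mean with p107). Its lowest, median and highest signals were 168.4, 255.2 and 430.0 in the TKO and 217.5, 238.1 and 294.2 in the p107;p130 DKO. The Rb1;p130 DKO ranged from 119.3 through 173.8 to 335.2. The p107 KO array was at 344.5, the Rb1;p107 DKO at 157.1, 266.7, 306.2, 278.9 and 255.1, the p130 KO at 166.9, 152.1 and 160.6, the Rb1 KO at 144.0 and 190.8 and wild type at 161.0 and 217.7. The second, dimmer Egln3 probe set changed by -0.36 ± 0.18, the other direction. The call was lost with array group as a block (0.31, adjusted p = 0.205), on the mean of both probe sets (0.06, adjusted p = 0.863) and without any 1 of 7 arrays (adjusted p = 0.0522 to 0.0636): wild type 1, Rb1 KO 1, Rb1;p130 DKO 1 or 5, and TKO 2, 4 or 6. Within the 3 array groups, Egln3 differed between arrays without and with p107 by 0.42, 0.40 and 0.03. These are plain differences of means, from 7 arrays against 10, 9 against 1 and 2 against 5. The second value thus rests on 1 array with p107. Bnip3 (0.35 ± 0.11, adjusted p = 0.119) and Adm (0.39 ± 0.14, adjusted p = 0.149) were not called. Bnip3 was called without Rb1;p130 DKO array 9 (0.40, adjusted p = 0.0354).

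Of 51 cell type markers, 1 was called with p107 loss as higher by limma, the stellate cell and pericyte receptor gene Pdgfrb (0.67 ± 0.11, adjusted p = 0.000869), and 6 had an unadjusted p under 0.05. For comparison, limma called 1.14% of all genes, 0.417% as higher, and 17% had an unadjusted p under 0.05. The change was positive for 6 of 7 stellate and mesenchymal markers (median 0.246), 6 of 8 endothelial, 4 of 5 megakaryocyte, 3 of 6 erythroid, 4 of 8 macrophage, 4 of 9 hepatocyte and 1 of 8 neutrophil markers (median -0.212). Stellate and mesenchymal markers summed to 6573 to 21411 on arrays without p107, against 4947 to 23611 on arrays with it. Of the 62 pathway genes 1 was called, Hk2, a hexokinase (0.36 ± 0.09, limma adjusted p = 0.0364). Pdgfrb and Hk2 were named after their values were seen, and the part of these cells in the Egln3 change was not tested.

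**Figure D4:**
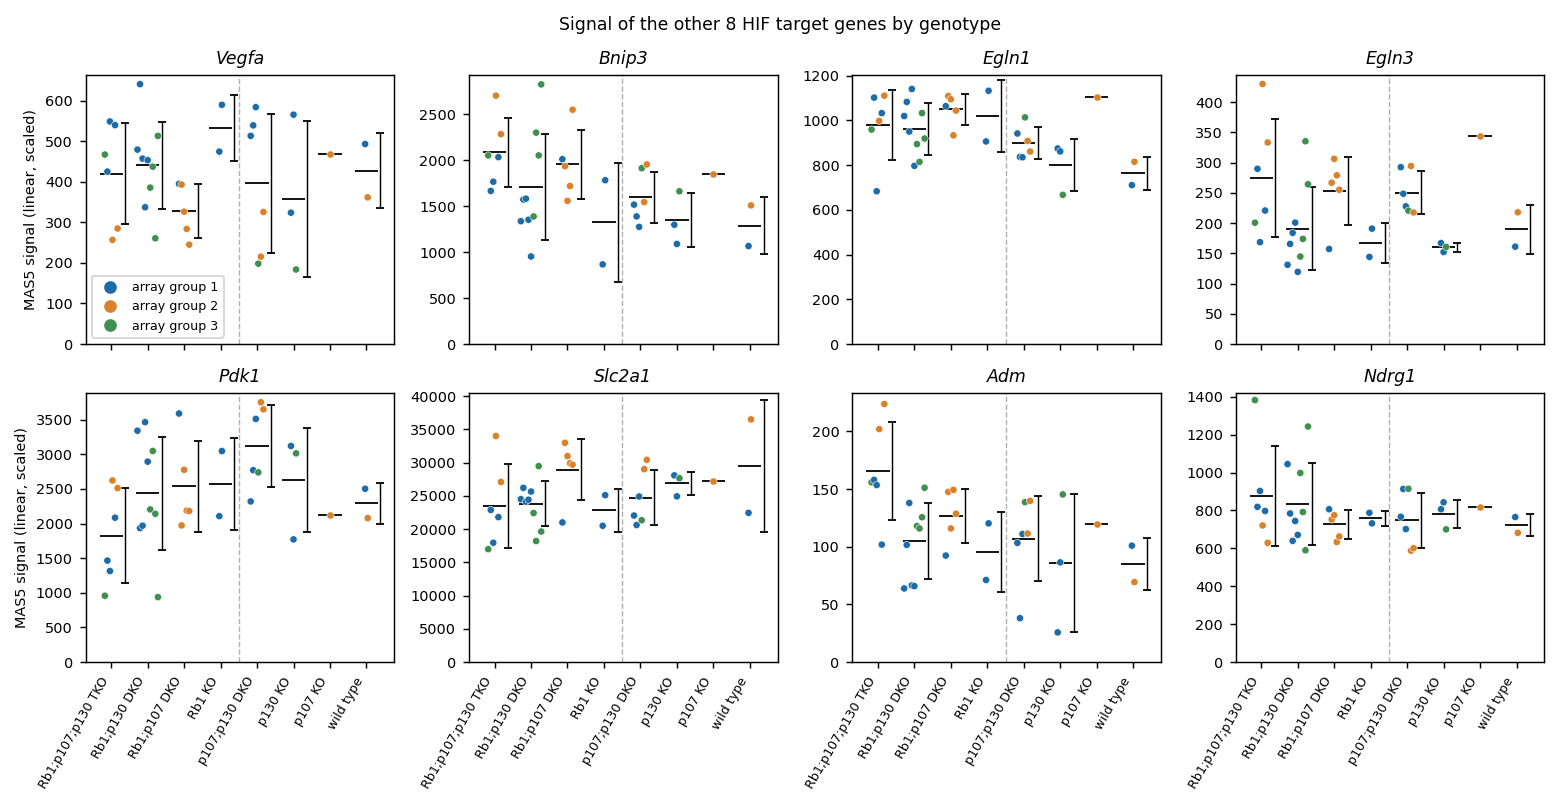
MAS5 signal (linear scale) of the other 8 genes on each of the 34 arrays, by genotype, points coloured by array group, bars as means and whiskers as SD. Bnip3 is highest in the TKO at a mean of 2085.9, and Adm averages 165.7 in the TKO against 85.1 in wild type.

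Correlations between the 10 genes over the 34 arrays had either sign. Of 45 pairs, 26 had a positive correlation of log2 signal, and 27 after array group means were removed. Before that removal the highest were Bnip3 with Adm (r = 0.642, 0.478 with array group means removed) and Bnip3 with Egln3 (r = 0.583), and the lowest was Slc2a1 with Ndrg1 (r = -0.66), all over 34 arrays that share array groups. Kdm3a and Ankrd37, which both rose with Rb1 loss, correlated at r = 0.328, and at r = 0.613 with array group means removed, the highest of the 45 pairs on that scale. Genotype means were not removed, so their shared rise with Rb1 loss is part of that correlation. Array group carried 54.4% of the variance of Slc2a1, 42.6% of that of Vegfa, 36.4% of that of Kdm3a and 5.9% of that of Ankrd37. The median over all genes tested was 21.2%. Genotype carried 54.4% of the variance of Kdm3a and 58.0% of that of Ankrd37, against a median of 22.3%. The shares by array group and by genotype were computed separately, from different numbers of groups. As genotypes are spread unevenly over array groups, the shares overlap and do not divide the variance. The genes most like Kdm3a in pattern were Brox (r = 0.846), Hipk3 (0.845) and Kbtbd2 (0.839). Those most like Ankrd37 were Jade1 (0.706), Brd1 (0.701) and Dcdc2b (0.655).

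Of 68 further genes of the pathway written as 3 lists, 62 could be tested. Where limma called 2.26% of all genes with Rb1 loss, 1.75% as higher, 5 of the 62 were called, all higher. They were Sap30, a subunit of a histone deacetylase complex (0.60 ± 0.07, limma adjusted p = 5.63e-08), Klf10, a transcription factor (0.68 ± 0.08, 6.39e-07), Siah1a, a ubiquitin ligase that acts on the Egln enzymes (0.52 ± 0.07, 1.15e-06), Mxi1, a Myc antagonist (0.62 ± 0.08, 3.91e-06), and Slc16a1, a lactate transporter (0.28 ± 0.06, 0.00706). Sap30, Klf10 and Siah1a were already known as changed when the list was written, so they lend the list no support. All 3 lists were written with earlier results of these data known, so their counts beside those of all genes are a description. Where p107 and p130 were absent, 4 of the 62 were called in the TKO against the p107;p130 DKO, beside 0.377% of all genes. Sap30 was 2465.3 ± 227.8 against 1620.4 ± 203.2, Klf10 1469.9 ± 237.9 against 917.6 ± 67.9, Siah1a 1824.5 ± 172.9 against 1271.8 ± 148.0 and Mxi1 4418.4 ± 774.2 against 2919.4 ± 489.7 (SD, n = 6 each). The 6 TKO arrays lay above all 6 DKO arrays for Sap30, Klf10 and Siah1a, while those of Mxi1 overlapped. The share of all genes separated in this way was not counted, and Sap30, Klf10 and Siah1a were already known as changed. In the Rb1;p130 DKO against p130 KO, limma called 3 of the 62, beside 0.118% of all genes. The 3 were Klf10 (0.77 ± 0.16, limma adjusted p = 0.0238), Siah1a (0.61 ± 0.12, adjusted p = 0.0255) and Sap30 (0.63 ± 0.13, adjusted p = 0.0283). With Rb1 loss limma called 0 of 17 genes of glycolysis and glucose import, with 1 of them at an unadjusted p under 0.05 and a median change of 0.08. Over all genes tested the shares were 2.26% and 11.3%, with a median change of -0.016. HIF subunits and their regulators gave 1 call of 13, Siah1a. Hif1a changed by 0.19 ± 0.07 (adjusted p = 0.184), Epas1 by 0.03 ± 0.10, Arnt by 0.05 ± 0.13 and Vhl by 0.07 ± 0.10, none called. Epo was not analysed here.

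Cell type markers gave no call with Rb1 loss, in 51 genes of 7 lists, with 4 at an unadjusted p under 0.05. For comparison, limma called 2.26% of all genes, and 11.3% had an unadjusted p under 0.05. The change was positive for 8 of 8 endothelial markers (median 0.097, 2 of them at an unadjusted p under 0.05), 8 of 9 hepatocyte (median 0.042), 4 of 6 erythroid, 4 of 7 stellate and mesenchymal, 4 of 8 neutrophil, 2 of 8 macrophage and 1 of 5 megakaryocyte markers. Summed signals without and with Rb1 overlapped in every list: 85254 to 134229 against 81895 to 131546 for erythroid, 113091 to 184072 against 110104 to 178523 for hepatocyte, 3268 to 5461 against 3019 to 5085 for endothelial and 7320 to 12831 against 8474 to 14611 for macrophage markers. They were 5384 to 23611 against 4947 to 21411 for stellate and mesenchymal, 31655 to 87794 against 43125 to 91057 for neutrophil and 10989 to 34255 against 14163 to 36985 for megakaryocyte markers. The part of cell composition in the Kdm3a and Ankrd37 changes was not tested.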

How the data were processed

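The authors' deposited table holds intensity values for 34 one-colour Affymetrix arrays, 1 linear value per probe set, made with MAS5 in GCOS 1.4, per the submitters' processing notes. Their 2% trimmed means ran from 495.4 to 497.7, and they were rescaled here to 500 and transformed to log2(signal + 32). Gene names came from the platform annotation and the RefSeq gene table: 34945 probe sets had 1 symbol, 932 several and 9160 none. Each gene was represented by its brightest probe set, and a gene entered the tests if 2 or more arrays read 100 or higher (12723 genes).

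limma 3.58.1 (R 4.3.3) fitted 1 mean per genotype over all arrays (11 pairs and 2 interactions) and an additive model of Rb1, p107 and p130 loss, with eBayes using a trend and Benjamini-Hochberg adjustment over all genes within a comparison, two-sided, called under 0.05. No sample was dropped or imputed. The steps were run on simulated data with independent noise and no array groups, so that run cannot show how array groups affect the calls. Alternatives were pseudocounts of 1 and 100, other filters, quantile normalization, the mean of probe sets, no trend, array group, sex or replicate number as a term, only the arrays compared, and leaving out each array. Array groups came from k-means with 3 clusters on 2996 genes. The 10 genes and all lists were chosen with earlier results of these data known, and leaving out Rb1;p130 DKO arrays 8 and 9 and the p107 and p130 terms were added after the data were seen. Named genes were the 10 in every genotype, Hif1a, Epas1, Arnt, Vhl and Epo, called list genes, and the 3 genes most like Kdm3a and Ankrd37. For arrays, their number limits the precision.

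Replicate numbers did not pair the arrays: same-numbered TKO and p107;p130 DKO arrays correlated in their deviations from the group means at r = -0.266 to 0.285 over 6 pairs.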

Additional observations from a re-analysis of the deposited data

Results flagged for a closer look

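Of 40 groups of 4 to 10 arrays, 6 held 1 array whose gap to its nearest neighbour was large for the range of the group, where chance gives about 1 in 20. In the Rb1;p107 DKO, Ankrd37 on array 3 was 145.0, against 188.5 to 207.5 on the others (gap over range 0.726). In the same genotype array 1 was low for Egln3 (157.1, against 255.1 to 306.2, 0.718) and for Slc2a1 (21010.8, against 29700.4 to 32997.0, 0.767), and it is the only array of that genotype in the first array group. Egln1 on TKO array 3 was 683.3, against 959.4 to 1111.2 (0.696). Pdk1 on array 9 of the Rb1;p130 DKO was 937.7, against 1934.3 to 3464.5 (0.551). Adm on array 2 of the p107;p130 DKO was 38.0, against 103.3 to 139.7 (0.735), below the signal of 100 used in the filter. Neither interaction passed an adjusted p under 0.05 for any of the 10 genes by limma, the lowest unadjusted p being 0.0386 for Ankrd37. In 70 further pairs of effects, looked at by direction alone and not tested, none had every array moving one way in 1 background and every array the opposite way in the other.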

How the results depend on the processing

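Kdm3a and Ankrd37 kept their call with Rb1 loss in every setting that tested them, at 0.45 to 0.56 and 0.41 to 0.76. The number of the 10 genes called with Rb1 loss was 1 when only probe sets at 200 or more on 6 or more arrays were kept, which leaves out Ankrd37 and Adm, and 2 to 3 with 1 array left out, Egln1 being added without TKO array 3. For the Rb1;p130 DKO against p130 KO it was 0 under that filter, 0 with only the arrays of the pair and 0 to 1 with 1 array left out. For the TKO against the p107;p130 DKO it was 1 with the array group block and 0 to 1 with 1 array left out. For p107 loss it was 0 on the mean of probe sets, 0 with the array group block, 2 without Rb1;p130 DKO arrays 8 and 9 (chosen after seeing the data) and 0 to 2 with 1 array left out. With the replicate block it was 2, Bnip3 being added (0.46, adjusted p = 0.0216). The block changed no other call of these genes. Replicate numbers do not pair the arrays.

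Over all genes, the array group block called 551 with Rb1 loss against 288, 126 in the TKO pair against 48 and 51 in the p130 pair against 15. Quantile normalization called 73 and 31 in those pairs, sex as a covariate 31 in the TKO pair and only the pair's arrays 5 in the p130 pair. The replicate block called 80 in the TKO pair. With p107 loss, against 145, the replicate block called 302, leaving out arrays 8 and 9 called 479, and leaving out 1 array 69 to 335.

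Of 1812 values of the 10 genes under other settings 54 had the other sign, none of them called. On the mean of probe sets these were Egln3 with Rb1 loss (-0.0585) and in the TKO pair (-0.14), Vegfa in the TKO pair (-0.0295), Pdk1 in the p130 pair (0.0803) and Slc2a1 with p107 loss (-0.0247). Slc2a1 with p107 loss was -0.0626 after quantile normalization. With the array group block, p107 loss gave Vegfa 0.0206, Slc2a1 -0.23 and Ndrg1 0.15. With the replicate block, Egln3 was -0.0941 with Rb1 loss and -0.10 in the p130 pair, Bnip3 -0.0625 in the p130 pair, and Slc2a1 -0.0658 and Ndrg1 0.065 with p107 loss. Without arrays 8 and 9, Egln3 was -0.0572 with Rb1 loss and -0.0143 in the p130 pair, and Pdk1 0.0386 in the p130 pair. With 1 array left out, Egln3 ran from -0.0285 to 0.052 with Rb1 loss and from -0.0645 to 0.18 in the TKO pair, and Vegfa from -0.0193 to 0.26 there. In the p130 pair Adm ran from -0.12 to 0.69, Ndrg1 from -0.0217 to 0.11 and Pdk1 from -0.42 to 0.0023. With p107 loss Slc2a1 ran from -0.0369 to 0.0373, Ndrg1 from -0.0636 to 0.0247 and Pdk1 from -0.12 to 0.0293. The cause of these changes was not tested. Signals near 100 limit what Adm and Ankrd37 can show.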
